A study of Mus musculus with 8 samples.

Results

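The genes described here are 9 transcription factor genes of the activator protein 1 (AP-1) and Maf families: Fos, Fosb, Fosl1, Fosl2, Jun, Junb, Jund, Maf and Maff. They were taken by name from a list, 9 of the 55276 gene symbols counted, and all 9 were among the 17344 genes with enough counts to be tested. Their RNA was measured by bulk sequencing of mouse esophageal epithelial cells parted by Cyto-ID, a dye that labels autophagic vesicles. Live cells that bore integrin beta-1 on their surface were sorted into a dim fraction, Cyto-ID Low, and a bright fraction, Cyto-ID High. All cells came from C57BL6 mice aged 14 to 15 weeks, for which the labels name no transgene, deletion or drug. The epithelium of 2 females and 2 males (Female1, Female2, Male1 and Male2) gave 1 library of each fraction per animal, so that there were 8 libraries, 4 per fraction. Every cell, of either fraction, had been through dispase, mincing and trypsin with shaking and through staining at 37 °C before the RNA was taken. There was no undissociated tissue for comparison.

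The libraries held 26285150 to 29301054 counts. Levels below are in CPM, counts relative to library size after trimmed-mean (TMM) scaling. That scaling was unequal between the fractions: its factors were 1.16 to 1.30 in Low and 0.679 to 0.944 in High, with the lowest in High Male2. The labels call both fractions squamous cells and the protocol calls them basal cells. Of 15 basal keratinocyte markers all 15 were lower in High, Krt5 with a mean of 8710 CPM in Low and 838 in High, and of 19 suprabasal markers 18 were higher in High. The Low libraries thus bore the basal markers in far larger amounts than the High libraries did. Markers of leukocytes, fibroblasts, endothelium and muscle were present at low levels in both, with summed levels of 69.6 to 112 CPM in Low and 30.4 to 135 in High for 16 leukocyte genes, and 323 to 508 CPM against 39.0 to 480 for 9 fibroblast genes. The summed level of 9 endothelial genes was 19.6 to 35.2 CPM against 3.40 to 43.7, and that of 9 muscle genes 42.3 to 66.6 against 5.14 to 64.1. Of these markers Cd3e, Cd3g, Kdr and Actg2 were at 0 in at least 1 library.

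AP-1 is a dimer. A Jun protein pairs with a Fos protein or with another Jun protein through a leucine zipper and binds a short palindrome in DNA, while Fos proteins do not form stable dimers with each other. Maf proteins share the same kind of basic region and zipper but recognise a longer element. The large Maf proteins, such as Maf, carry an activation domain, and the small ones, such as Maff, lack it and act through their partners. In stratified epithelium AP-1 takes part both in the proliferation of basal cells and in the expression of cornified envelope genes. Several of these genes, Fos, Fosb, Jun and Junb among them, are immediate-early genes: their transcripts appear within minutes of growth factors, stress or the handling of tissue.

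Promoter stretches of Jun and Maff, which are among the 3 members that differed between the fractions, are shown first, because they carry related letters beside their start sites. RefSeq promoters (GRCm38.p6) were found for 7 of the 9 genes, all but Maf and Fosl1, with 9 start sites in all, and the 250 bases before each start were searched on both strands. The motifs were TGANTCA, the AP-1 palindrome, and TGACNTCA, the longer palindrome that Jun dimers with ATF proteins also bind. They cannot match the same bases. Capitals mark the matches.
Jun: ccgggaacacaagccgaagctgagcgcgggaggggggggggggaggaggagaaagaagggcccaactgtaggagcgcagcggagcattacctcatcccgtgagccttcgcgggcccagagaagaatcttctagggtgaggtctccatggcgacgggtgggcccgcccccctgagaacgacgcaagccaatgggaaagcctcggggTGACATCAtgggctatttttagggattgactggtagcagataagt
Maff, middle start: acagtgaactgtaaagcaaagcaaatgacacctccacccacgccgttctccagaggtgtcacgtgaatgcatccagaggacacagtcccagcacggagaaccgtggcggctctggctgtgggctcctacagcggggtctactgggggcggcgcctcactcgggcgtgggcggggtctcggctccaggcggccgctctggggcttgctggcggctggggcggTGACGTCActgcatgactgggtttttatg
Maff, last start: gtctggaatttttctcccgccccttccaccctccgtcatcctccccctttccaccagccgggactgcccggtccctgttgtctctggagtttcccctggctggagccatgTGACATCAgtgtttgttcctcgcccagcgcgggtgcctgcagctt
Fos: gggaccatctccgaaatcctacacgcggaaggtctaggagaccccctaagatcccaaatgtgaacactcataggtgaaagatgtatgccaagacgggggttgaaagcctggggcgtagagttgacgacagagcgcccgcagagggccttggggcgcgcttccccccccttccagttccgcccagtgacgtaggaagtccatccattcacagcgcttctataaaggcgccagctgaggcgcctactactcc
The Jun stretch is chr4:95052223-95052472 on the minus strand. The stretch of the middle Maff start is chr15:79347270-79347519 on the plus strand. For the last Maff start only chr15:79348247-79348401 is shown, since the 95 bases before it belong to an annotated exon. The Fos stretch is chr12:85473640-85473889 on the plus strand and is shown as a start site without an exact match. Near matches are not marked: the Fos stretch holds tgacgtag and the Jun stretch also holds ttacctca, both close to TGACNTCA. Absence of a match therefore does not mean that a related site is absent. TGACNTCA was matched once at Jun, as TGACATCA with its first base 45 bases before the start. The last Maff start carried the same letters at the same distance, and the middle one carried TGACGTCA 29 bases before the start. At the other 6 start sites, that of Fos among them, neither motif was matched, and TGANTCA was matched at none of the 9. Among 32851 promoter stretches of the same length in the table, 7.49% held TGACNTCA and 6.75% held TGANTCA. The site in the Jun promoter is known as one through which Jun proteins act on their own gene, whereas nothing was measured on these stretches here.

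With both fractions compared over the 4 animals, 3 of the 9 members passed the threshold of 0.05 on the adjusted p of edgeR's quasi-likelihood test, which is 33.3% of them. Jun was lower in Cyto-ID High, and Maf and Maff were higher. Of all 17344 genes tested 48.7% passed, 23.4% of them higher and 25.3% lower in High, so that the members were called no more often than genes at large. The CPM of the fractions did not overlap for 1 of the 9 members, Jun, against 48.6% of all genes. With the animal as a block in place of sex, 53.8% of genes passed, and the same 3 members. The median log2 fold change was 0.10 over the members and −0.090 over all genes tested. In bulk RNA, fewer cells that express a gene and less of its RNA per cell cannot be told apart.

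**Figure D1:**
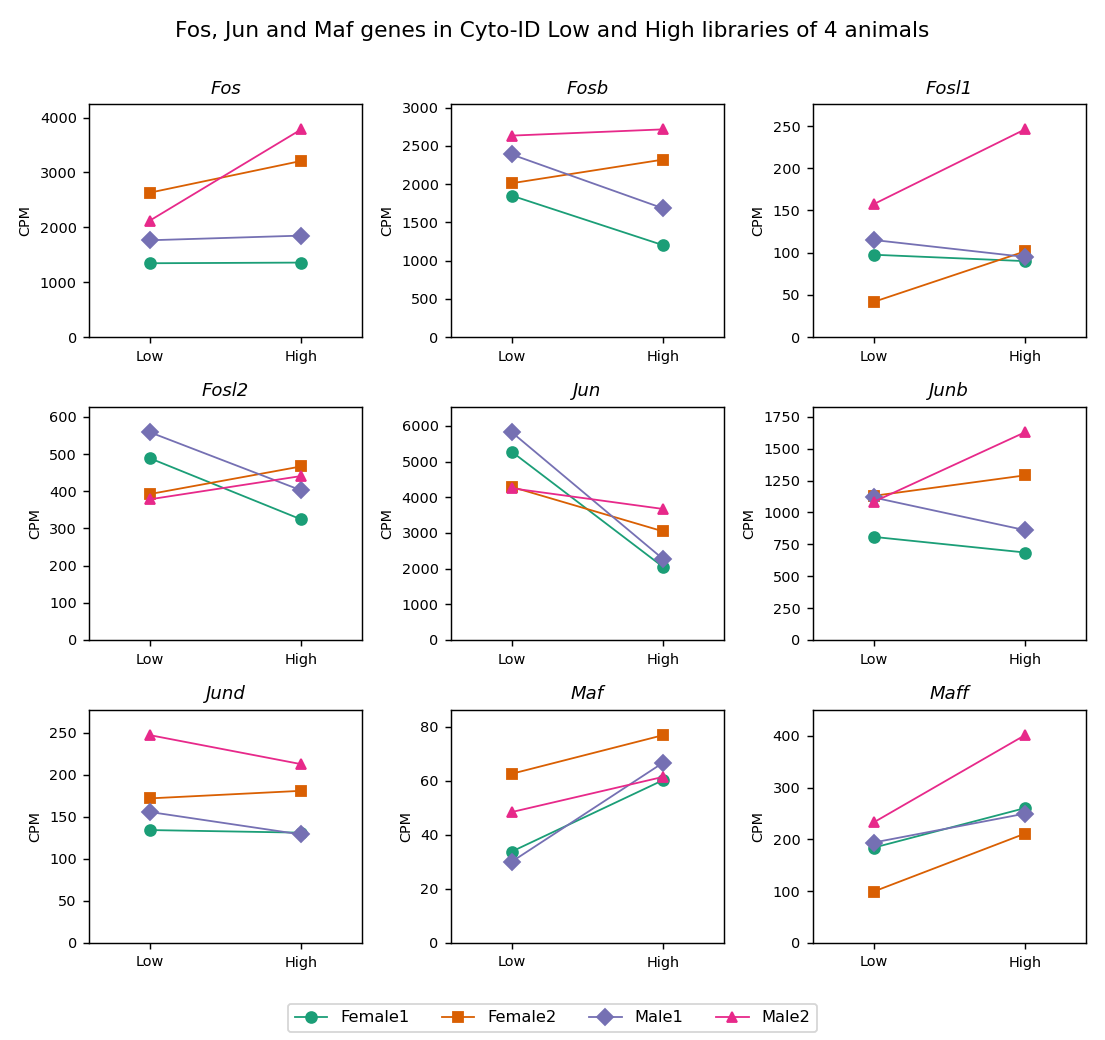
CPM of each of the 9 genes (linear axes from 0) in the Low and High library of each animal, with 1 line per animal. Jun is lower in High in all 4 animals and its fractions do not overlap, Maf and Maff are higher in all 4, and Fosb, Fosl2 and Junb are higher in 2 animals and lower in 2.

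Jun encodes c-Jun, the Jun protein with the strongest activating capacity, and is an intronless gene at chr4:95049034-95052222 on the minus strand (GRCm38). It stood at 5273, 4288, 5819 and 4249 CPM in the Low libraries of Female1, Female2, Male1 and Male2, in that order, which is kept below. In the High libraries it stood at 2045, 3043, 2267 and 3670 CPM. Every Low library was above every High library. The mean was 4908 ± 771 CPM in Low and 2756 ± 744 in High (SD, n = 4), and the fitted log2 fold change was −0.84 (SE 0.23, edgeR adjusted p = 0.0132), or 1.79-fold lower in High. Among all genes of a library ordered by CPM, Jun ranked from 4 to 9 in Low and from 26 to 41 in High.

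The size of the Jun difference was not alike in the 4 animals. On the log2 CPM scale, High minus Low was −1.37 in Female1 and −1.36 in Male1, but −0.50 in Female2 and −0.21 in Male2. In a fit of the animals numbered 1 alone, a split chosen after these values were seen, the log2 fold change was −1.32 with an adjusted p of 0.000577 (58.2% of genes passed there), and in the animals numbered 2 alone it was −0.35 with 0.0862 (46.2% of genes passed). These p-values do not test whether the pairs of animals differ. For the other members the log2 fold changes of such fits are given without p-values. Without both libraries of Male1 the change was −0.68 and missed the threshold, with an adjusted p of 0.0533. The labels do not say whether the number in an animal's name marks a batch. Of the Jun exon, 232 of 3189 bases overlap the antisense gene Junos, whose own counts were 26 to 148 against 53001 to 187330 for Jun.

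Junb and Jund did not pass. Junb, which activates more weakly than c-Jun at many sites and can oppose it, was at 809, 1131, 1118 and 1083 CPM in Low and at 686, 1291, 862 and 1629 in High. Its log2 fold change was 0.10 (SE 0.26, adjusted p = 0.788), with High above Low in the animals numbered 2 and below it in those numbered 1. Jund, the most constitutively expressed Jun gene in many tissues, was at 134, 172, 156 and 247 CPM in Low and at 131, 181, 129 and 212 in High. Its log2 fold change was −0.11 (SE 0.22, adjusted p = 0.743). Of its 1668 exonic bases 877 overlap Gm11175 on the other strand, which had 0 counts in every library, and how the counting treated reads there is not given in the sources used here. The fractions overlapped for both genes.

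Shares within a library do not depend on its scaling, and they parted the fractions for Jun. Jun made up 84.8%, 76.7%, 82.0% and 76.2% of the counts of the 3 Jun genes in Low and 71.5%, 67.4%, 69.6% and 66.6% in High, 79.9 ± 4.2% against 68.8 ± 2.2% (SD, n = 4). The lowest Low library was above the highest High library. There were 0.153 to 0.264 counts of Junb for each count of Jun in Low and 0.335 to 0.444 in High, again without overlap. These shares use the same Jun counts as the fit and were not tested separately.

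**Figure D2:**
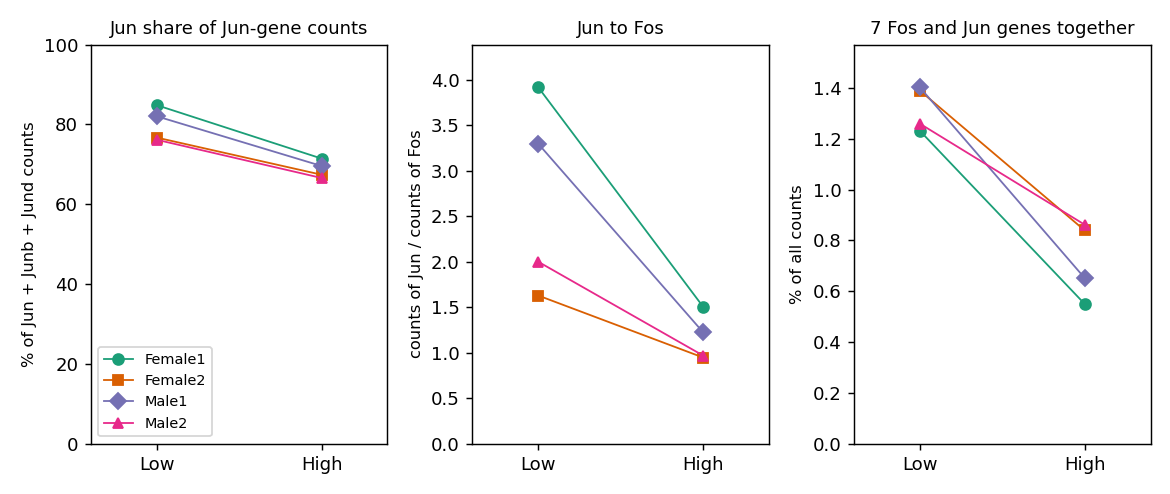
Shares and ratios of counts within each library, Low and High joined per animal: Jun in percent of Jun, Junb and Jund counts, counts of Jun per count of Fos, and the 7 Fos and Jun genes in percent of all counts (axes from 0). All 3 are lower in High in every animal, and in none do the fractions overlap. The percent of all counts amounts to scaling by total counts, and after TMM the summed level of the 9 members overlapped between the fractions.

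Fos encodes c-Fos, the first Fos protein to appear after a stimulus, at chr12:85473890-85477273. It was at 1346, 2633, 1765 and 2124 CPM in Low and at 1358, 3211, 1850 and 3786 in High. The value in High was above that in Low in each animal, with log2 differences of 0.013, 0.29, 0.068 and 0.83, yet animals differed more than fractions did and the ranges overlapped. The mean was 1967 ± 546 CPM in Low and 2551 ± 1137 in High (SD, n = 4), and the log2 fold change of 0.37 (SE 0.34, adjusted p = 0.420) did not pass. With the animals split by number, after the values were seen, it was 0.57 in those numbered 2 and 0.087 in those numbered 1. Counts of Jun outnumbered those of Fos 3.92, 1.63, 3.30 and 2.00 times in Low and 1.51, 0.948, 1.23 and 0.969 times in High. The fractions did not overlap in this ratio, and in the High libraries of Female2 and Male2 Fos had more counts than Jun.

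Fosb, a strong activator close to c-Fos in its zipper, at chr7:19302696-19310051, was at 1849, 2011, 2387 and 2633 CPM in Low and at 1201, 2320, 1682 and 2715 in High. Its log2 fold change was −0.16 (SE 0.24, adjusted p = 0.628), and the sign differed among animals: −0.62 in Female1 and −0.50 in Male1, against 0.21 in Female2 and 0.044 in Male2. Fosl2 encodes Fra-2, a Fos protein without the strong activation domain of c-Fos that is known from differentiating keratinocytes. It was at 489, 392, 559 and 378 CPM in Low and at 324, 467, 402 and 441 in High, with a log2 fold change of −0.15 (SE 0.19, adjusted p = 0.552). Its sign split by animal as that of Fosb did, −0.59 and −0.47 in the animals numbered 1 and 0.25 and 0.22 in those numbered 2. The difference passed in the animals numbered 1 alone, at −0.49 with an adjusted p of 0.0260, and was 0.24 with 0.282 in those numbered 2.

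Fosl1 encodes Fra-1, which lacks the same activation domain and is itself a target of AP-1. It had the widest spread of the Fos genes in Low relative to its mean, at 97.6, 41.7, 115 and 157 CPM, and was at 90.0, 102, 94.9 and 246 in High. High Male2 lay far above the other High libraries and Low Female2 far below the other Low ones. The log2 fold change was 0.39 (SE 0.33, adjusted p = 0.361). In the animals numbered 2 alone it was 0.97 and passed, with an adjusted p of 0.00677, and in those numbered 1 it was −0.15 with 0.349. The gene shares 1163 of its 2033 exonic bases with Ccdc85b on the other strand, which had 1214 to 2895 counts where Fosl1 had 1515 to 5215. Whether the counting used the strand is not given in the sources used here, so the reads of these genes may not be told apart.

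Maf encodes c-Maf, which is known to promote the differentiation of epidermal cells. It lies at chr8:115682942-115707794 on the minus strand and was at 33.8, 62.6, 30.1 and 48.4 CPM in Low and at 60.3, 76.9, 66.7 and 61.5 in High. High exceeded Low in all 4 animals, but Low Female2 was above the High libraries of Female1 and Male2. The mean was 43.7 ± 14.9 CPM in Low and 66.4 ± 7.6 in High (SD, n = 4), and the fitted change was 0.61 on the log2 scale (SE 0.22, adjusted p = 0.0457), or 1.52-fold higher in High. Most of the gap lay in the animals numbered 1, where the log2 differences were 0.83 and 1.15 against 0.30 and 0.34. In those animals alone, a split made after the values were seen, the change was 1.04, and in the animals numbered 2 alone it was 0.33.

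Maff encodes a small Maf protein that represses as a homodimer and activates or represses with a partner, and lies at chr15:79346621-79359076 on the plus strand. It was at 184, 99.1, 194 and 233 CPM in Low and at 261, 211, 250 and 401 in High. Low Male2 exceeded High Female2, so the fractions overlapped, although High was above Low in all 4 animals. The mean was 177 ± 56 CPM in Low and 281 ± 83 in High (SD, n = 4), and the fitted change was 0.67 on the log2 scale (SE 0.23, adjusted p = 0.0353), or 1.59-fold higher in High. The log2 differences were 0.50 and 0.37 in the animals numbered 1 and 1.09 and 0.79 in those numbered 2, the larger ones in the animals where Maf differed less. Either pair of animals passed alone, at 0.48 (adjusted p = 0.0159) and 0.94 (adjusted p = 0.00407).

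The adjusted p of Maf and Maff lay close to the threshold, and their calls were lost with some libraries left out and under another scaling. Maf no longer passed when a single library was left out, either Low Female1 (adjusted p = 0.138), High Female2 (0.122), Low Male1 (0.169), High Male1 (0.100) or High Male2 (0.0700). The same was true of Maff on leaving out High Female1 (adjusted p = 0.0861), Low Female2 (0.0656), High Female2 (0.0566), Low Male1 (0.0738) or High Male2 (0.0994). The direction held in each of these fits. The log2 fold change without the library was 0.44 to 0.61 for Maf and 0.51 to 0.72 for Maff in these fits, so that with High Male2 left out for Maf (0.61) and High Female2 for Maff (0.72) it was no smaller than with all 8 libraries. Under scaling by total counts alone the log2 fold change was 0.040 for Maf (adjusted p = 0.892) and 0.10 for Maff (adjusted p = 0.681).

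That scaling moved every gene. It set the median log2 fold change of all genes at −0.64, with a median shift of −0.56, and called 61.7% of genes, 12.6% higher and 49.1% lower. Jun was then at −1.43 (adjusted p = 0.000139). A change of scaling moves all genes by about the same amount, so that each member's place relative to that median says nothing further. Fosb at −0.77, Fosl2 at −0.73 and Jund at −0.70 then passed as lower, at values near the median of all genes, and Fos, Fosl1 and Junb turned to −0.26, −0.21 and −0.51 without passing. Without any rescaling the 7 Fos and Jun genes together took 1.23% to 1.40% of all counts in Low and 0.550% to 0.862% in High. After TMM the summed level of the 9 members overlapped, at 10214 to 12142 CPM in Low and 6156 to 13163 in High. That sum was lower in High in Female1 and Male1 and higher in Female2 and Male2.

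**Figure D3:**
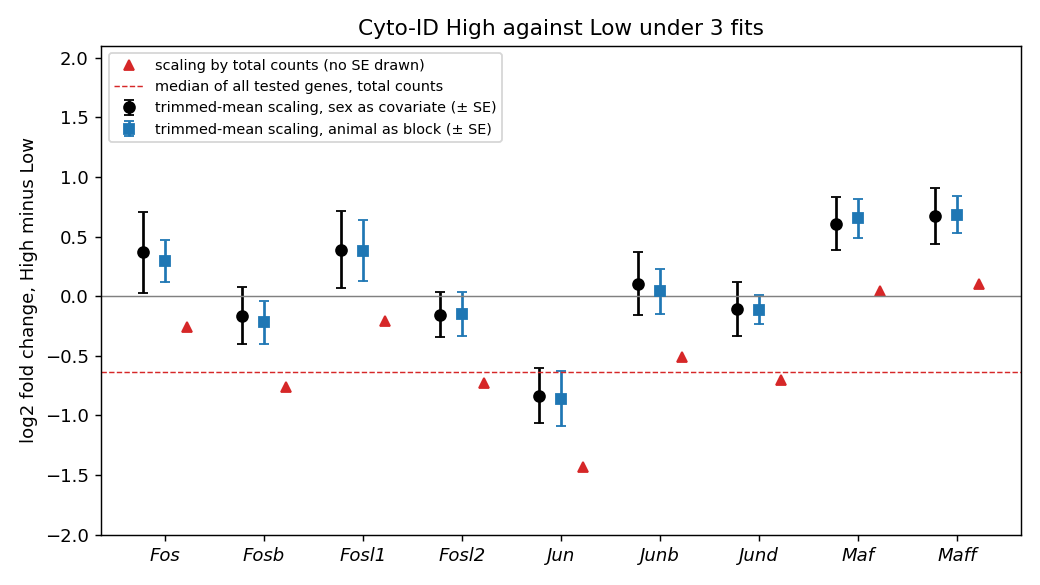
Log2 fold change, Cyto-ID High minus Low, of the 9 genes over 8 libraries: black circles with sex as covariate and blue squares with the animal as block (bars are the SE), red triangles with total counts in place of TMM. Jun at −0.84 is the lowest under TMM and Maff at 0.67 the highest, and the red triangles lie lower by about the gap between 0 and the dashed red line, the median of all genes under total counts.

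Compared per kilobase of exon, which allows genes to be set against each other, the order was Jun, Fos, Junb, Fosb, Jund, Maff, Fosl1, Fosl2 and Maf in Low. Jun stood at 1539 ± 242 CPM per kilobase (SD, n = 4) and rank 27 of 17017 genes with a length, Fos at 836 ± 232 and rank 77, and Maf at 5.31 ± 1.81 and rank 7040. The ranges over the Low libraries did not overlap between Jun and Fos, Fos and Junb, Fosb and Jund, or Fosl2 and Maf, and overlapped between the other neighbours. In High, Fos came first at 1085 ± 483 and Jun second at 864 ± 233, and Maff moved ahead of Jund, whose level per kilobase may depend on how reads in its overlap with Gm11175 were counted. There the ranges of neighbours overlapped except between Fosb and Maff and between Fosl2 and Maf. Between Jun and Fos the ranges over the High libraries overlapped too, while the ratio of their counts within a library, given above, did not overlap between the fractions. All 4 immediate-early members, Fos, Fosb, Jun and Junb, were thus among the 253 most abundant genes of either fraction per kilobase, in cells that had all been dissociated.

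Within the High fraction, most members had their extremes in the same libraries. In High Male2, 7 of the 9 members had their highest High value, and in High Female1, 7 had their lowest. In the High fraction both animals numbered 2 lay above both numbered 1 for 7 members, that is all but Maf and Maff. The Low fraction showed no such common order: the animals numbered 2 were above for Fos, Jund and Maf and below for Fosl2 and Jun, and the ranges overlapped for the other 4. The median deviation of the 9 members from their fraction mean was −0.39, 0.21, −0.24 and 0.52 on the log2 scale in the High libraries of Female1, Female2, Male1 and Male2, and −0.25, −0.13, 0.12 and 0.21 in Low.

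A list of 34 other immediate-early genes known to respond to tissue dissociation had its extremes in the same High libraries. Its median deviation was −0.36, 0.10, −0.17 and 0.49 in the same High libraries and −0.12, −0.22, 0.12 and 0.22 in Low, so that High Female1 was lowest and High Male2 highest in this list too. In Low the lowest library was Female2 for the list and Female1 for the members. For 14 heat shock genes the median deviation in High was between −0.11 and 0.16. The lists of leukocyte, fibroblast, endothelial and muscle markers deviated the other way, with medians of 1.32 to 1.60 in High Female1, 0.90 to 1.06 in High Male1, −0.15 to 0.15 in High Female2 and −2.08 to −2.67 in High Male2. In all 4 of these lists both High libraries numbered 1 were thus above both numbered 2, the reverse of the order of the 7 members. High Male2 also had the fewest genes with a count, 22208, and the lowest TMM factor. The part of dissociation, of admixed cells or of scaling in the differences among High libraries was not tested.

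**Figure D4:**
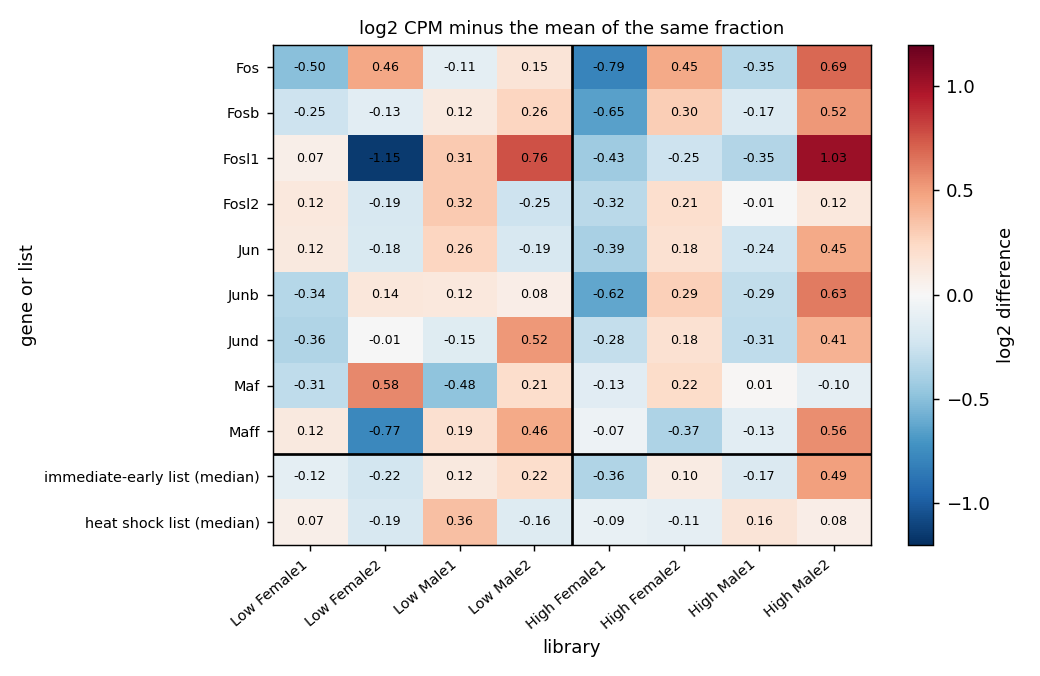
Log2 CPM of each member minus the mean of its fraction (colour scale in log2 units, values printed), for 4 Low and 4 High libraries, with the median of the immediate-early and heat shock lists in the lowest rows. High Female1 is below its fraction mean for all 9 members and High Male2 is above it for all but Maf, and the immediate-early list reads −0.36 and 0.49 there.

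Between the fractions, the immediate-early list showed no common direction. Of its 34 genes, 9 were higher in High, 8 were lower and 17 did not pass, with a median of 0.015, and its summed level overlapped, at 13839 to 18148 CPM in Low and 11487 to 22747 in High. Of all genes tested 23.4% were higher and 25.3% lower, so the list was called about as often as genes at large. Nr4a3, a nuclear receptor gene, was higher by 2.61 on the log2 scale (SE 0.26, adjusted p = 4.15e-05) and Cebpb, a bZIP factor of differentiation, by 1.99 (SE 0.23). Socs3, a feedback inhibitor of cytokine signalling, was lower at −2.45 (SE 0.26) and Irf1, an interferon response factor, at −2.33 (SE 0.24). The list's changes spanned −2.45 to 2.61, a range so wide that lying within it says nothing about the members. Under scaling by total counts 5 of the list were higher and 19 lower, where 12.6% and 49.1% of all genes were. Of the 14 heat shock genes, 3 were higher, 3 lower and 8 not passed, with a median of 0.10, while their summed level was 7867 to 10305 CPM in Low and 10345 to 14185 in High. Under scaling by total counts 2 were higher and 8 lower, with a median of −0.47, where the median of all genes was −0.64. Hspb1, a small heat shock protein also made by differentiating keratinocytes, was higher at 2.06 (SE 0.19), and Hsp90aa1, the stress-inducible Hsp90, was lower at −1.30 (SE 0.27). What dissociation contributed to the difference of Jun, Maf and Maff between the fractions was not tested.

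The partners of these factors in the wider bZIP family differed in both directions. Of 18 further AP-1 and Maf family genes 13 were tested, of which 5 were higher, 4 lower and 4 not passed, with a median of 0.33 (3 higher, 6 lower and −0.25 with total counts). Among all genes tested 23.4% were higher and 25.3% lower. Nfe2l3, a partner of small Maf proteins, was higher by 3.30 (SE 0.34, adjusted p = 4.68e-05), from 4.71 ± 2.06 CPM in Low to 46.7 ± 12.0 in High (SD, n = 4). Mafa was lower at −2.86 (SE 0.25) and scarce in both fractions, with means of 16.0 and 2.22 CPM. Atf2, which pairs with c-Jun on the longer palindrome, was lower at −1.20 (SE 0.12, adjusted p = 3.97e-05), with all Low libraries above all High ones.

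Some genes of this family were picked out after their values were seen. Of the other small Maf genes, Mafk was higher by 0.77 (SE 0.21, adjusted p = 0.0115), without overlap of the fractions, and Mafg was at −0.26 (SE 0.23, adjusted p = 0.398). With total counts Mafk was at 0.20 and did not pass (adjusted p = 0.334), and Mafg was at −0.82 and passed as lower (adjusted p = 0.00958). Atf3, an immediate-early gene whose protein pairs with Jun proteins, was lower at −0.96 (SE 0.21, adjusted p = 0.00400), from 2497 ± 501 CPM in Low to 1285 ± 285 in High (SD, n = 4), the same direction as Jun. Ccn1, another immediate-early gene that AP-1 can activate, was lower at −1.47 (SE 0.25, adjusted p = 0.000986).

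Upstream of AP-1, mitogen-activated protein (MAP) kinases phosphorylate Jun proteins and activate the factors that drive Fos. Of 23 MAP kinase genes and genes of serum response factor and its partners, 8 were higher, 6 lower and 9 not passed, with a median of 0.15 (8 higher, 11 lower and −0.42 with total counts). The shares of all genes tested, to be set beside this count and that of the phosphatases below, were 23.4% higher and 25.3% lower. Mapk11, encoding p38 beta, was higher by 2.91 (SE 0.39) from a mean of 2.24 CPM in Low to 17.0 in High, and Mapk12, encoding p38 gamma, by 2.40 (SE 0.26). Lower were Elk4, a serum response factor partner, at −0.998 (SE 0.21), and Map3k1, a kinase upstream of Jun kinase, at −0.84 (SE 0.13). Of 10 MAP kinase phosphatases, which switch these kinases off, 2 were higher and 5 lower, with a median of −0.89 (2 higher, 7 lower and −1.42 with total counts). Dusp5 was higher by 2.26 (SE 0.23) and Dusp16 by 1.38 (SE 0.19), while Dusp10 was at −1.57 (SE 0.44) and Dusp6 at −1.43 (SE 0.20). Dusp10 no longer passed without Low Female1 (−1.18, adjusted p = 0.0843) or without both libraries of Male1 (−1.32, adjusted p = 0.0704).

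Downstream, 8 of 19 genes known as AP-1 targets were higher in High, 2 lower and 9 not passed, with a median of 0.049 (7 higher, 4 lower and −0.40 with total counts). Genes at large were higher in 23.4% and lower in 25.3% of cases. In the animals numbered 1 alone 17 of the 19 passed, where 58.2% of all genes did, and in those numbered 2 alone 11 passed, where 46.2% did. The higher ones included cornified envelope genes: Lor rose by 4.12 (SE 0.64) and Sprr1a by 3.25 (SE 0.36). Ivl, outside the naming rule and picked for its well-known AP-1 site, rose by 1.48 (SE 0.19), from a mean of 10.6 to 29.2 CPM. Some of these are also markers of suprabasal cells, 18 of 19 of which were higher, so the list does not separate AP-1 targets from differentiation. Ccnd1, encoding cyclin D1, was lower at −1.63 (SE 0.19) and Plau, encoding urokinase, at −0.49 (SE 0.13). The matrix metalloproteinase genes Mmp3, Mmp9, Mmp10 and Mmp13, also picked outside the rule, were between −0.14 and 0.049 and did not pass. Their means were 2.69 to 13.2 CPM and their SEs 0.70 to 0.80, so a sizeable change either way could go undetected. Mmp3 and Mmp10 were at 0 in High Male2.

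**Figure D5:**
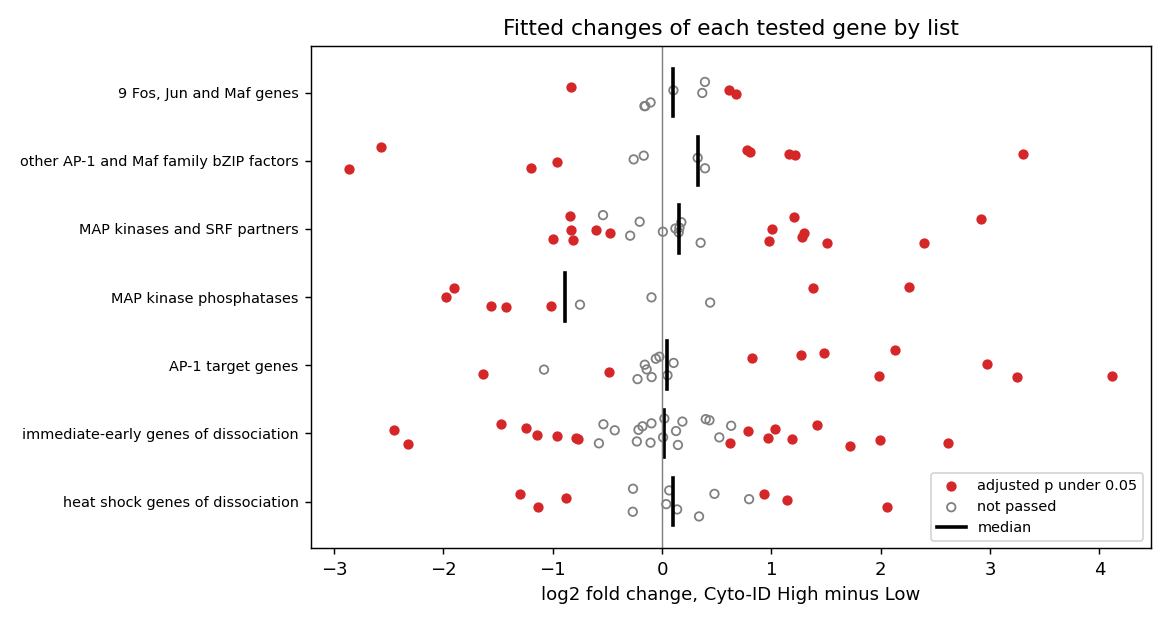
Fitted log2 fold change, Cyto-ID High minus Low, of each tested gene of 7 lists (1 point per gene, spread vertically only for legibility), filled red where the adjusted p is under 0.05, with the median of each list as a black bar. Every list has red points on both sides of 0, and the medians run from −0.89 for MAP kinase phosphatases to 0.33 for the other bZIP factors.

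No member differed detectably between the sexes in its response to the fraction. The interaction of sex and fraction lay between −0.27 and 0.34 on the log2 scale over the 9 members, with a lowest unadjusted p of 0.594, and 0 of all 17344 genes passed in edgeR, 19 of them (0.11%) with an unadjusted p under 0.05. With counts summed over both fractions, males against females were between −0.22 for Maf and 0.86 for Fosl1, which had an unadjusted edgeR p of 0.0192 (1.44% of genes were under 0.05). No member passed after adjustment there, where 4 of 19687 genes (0.0203%) did. With 2 animals of each sex, differences of the size seen for the fractions could go undetected.

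The genes whose levels ran most like those of Fos, Jun and Maf were sought after the mean of each fraction had been subtracted, over 8 libraries from 4 animals and 10006 genes. This likeness is a Pearson correlation given as a description, since libraries share animals and a scaling. Closest to Fos were Pdxdc1 (0.998), Dcaf5 (0.997), Rprd1b (0.995), Kif16b (0.995) and Cpsf3 (0.994). Closest to Jun were Srrm1 (0.990), Akr1b10 (0.984), Eif3a (0.983), Fbxo38 (0.979) and Mif4gd (0.979), and closest to Maf were Knop1 (0.969), Bloc1s3 (0.962), Snx30 (0.946), Ado (0.941) and Fam214a (0.938). None of these 15 was in the list of 34 immediate-early genes. With so few genes taken out of 10006, that absence carries no information about a link to the list.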

How the data were processed

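The authors deposited unnormalized counts by gene symbol, to judge by the values: whole numbers whose totals differ between libraries. STAR 2.7.3, DESeq2 and GRCm38 are named in the submitters' processing notes. The annotation, the counting tool, its use of strand and any filter are not given in the sources used here. Animal name and fraction tied each of the 8 columns to its sample.

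Counts were analysed with edgeR 4.0.16 in R 4.3.3 (filterByExpr by fraction, TMM, glmQLFit and glmQLFTest with sex as covariate), two-sided, with Benjamini-Hochberg adjustment over 17344 genes and a threshold of 0.05. Each SE is the absolute log2 fold change over the root of F, and a prior count of 2 was added for log2 CPM. Same-named libraries come from 1 animal. Deviations from the fraction means correlated across genes at 0.433, 0.316, −0.0161 and 0.277 within Female1, Female2, Male1 and Male2. No 2 libraries of a fraction agreed within sampling noise (chi-square per degree of freedom at least 17.7). The fits were tested on simulated counts. Lengths, overlaps and gene positions come from GENCODE M21. Alternatives, including DESeq2 1.42.0 and limma 3.58.1 (voom), are in the closing section.

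The members and lists were chosen with earlier results of these data known, and the promoter motifs after the sequences were seen. All 9 members are named. From each pathway or stress list at most 2 genes per direction are named, those with the largest fold change among genes that passed with a mean of at least 5 CPM. The values of 1 gene that met this rule are not reported here. Cyr61 was counted under its synonym Ccn1. The p-values cover the spread between 4 animals, and precision at the members' counts (968 or more per library) is set by that spread more than by counting.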

Additional observations from a re-analysis of the deposited data

Results flagged for a closer look

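In 4 of 42 groups of 4 libraries, 1 library stood far from the other 3, where chance gives about 1 in 20. High Male2 had 246 CPM of Fosl1, against 90.0, 94.9 and 102 in the other High libraries. Low Female1 had 809 CPM of Junb, against 1083, 1118 and 1131 in the other Low libraries. The summed level of the 18 other AP-1 and Maf family genes was 4370 CPM in Low Male1, against 3236, 3382 and 3390 in the other Low libraries. For the 23 MAP kinases and serum response factor partners it was 1075 CPM in Low Female2, against 1353, 1354 and 1385.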

How the results depend on the processing

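Of 216 alternative log2 fold changes of the 9 members, 175 kept their direction and side of the threshold, 21 no longer passed, 6 newly passed and 14 reversed. The members passing went from 3 to between 1 and 3 when a library or animal was left out, with 1 left without High Female2, Low Male1, High Male2 or the animal Male1. Jun lost its call without Male1 (−0.68, over these fits −1.01 to −0.68) and in the animals numbered 2 alone (−0.35). With libraries or animals left out, Maf ranged from 0.44 to 0.84 and Maff from 0.51 to 0.82. With both libraries of an animal left out, Maf lost its call without Female1 (adjusted p = 0.100) or Male1 (0.193). Maff lost it without Female2 (adjusted p = 0.0509) or Male2 (0.0689). Maf also missed the threshold with total counts (0.040), with at least 10 counts in every library (0.58, adjusted p = 0.0502) and in the animals numbered 2 (0.33), and Maff with total counts (0.10) and with no covariate (0.66, adjusted p = 0.0671). Total counts also gave Fos −0.26, Fosl1 −0.21 and Junb −0.51, with the sign turned, and Fosb −0.77, Fosl2 −0.73 and Jund −0.70, which passed. Fits of 2 animals, chosen after the data were seen, gave Fos 0.57, Fosb 0.13, Fosl1 0.97 and Fosl2 0.24 in the animals numbered 2 and Fosl1 −0.15, Fosl2 −0.49 and Junb −0.26 in those numbered 1. Leaving out 1 library or animal turned the sign of Fosb (0.00097 without High Female1, −0.38 at the lowest), Junb (−0.12 without High Male2, −0.084 without High Female2, −0.051 without Male2 and −0.020 without Low Female1, 0.28 at the highest) and Jund (0.053 without High Male1, 0.071 without Low Male2, −0.25 at the lowest). The cause was not tested.

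The animal as replicate block changed no member's call (Jun adjusted p = 0.0153, Maf 0.0107, Maff 0.00652) and gave 9336 genes passing in place of 8440. Males against females gave 15 genes with no filter, 0 in the High libraries alone, with edgeR, and 1 in the Low libraries alone, in place of 4. Of 24 other genes that met the naming rule, 22 kept their call in every setting, and Dusp10 and Plau did not. Of the fixed lists, the number passing moved by over 1.5 times for AP-1 targets (10 to 17 in the animals numbered 1) and heat shock genes (6 to 10 with total counts). It also moved for leukocyte markers (3 to 8 in either pair of animals), fibroblast markers (1 to 3 with no filter, 6 and 8 in the animals numbered 1 and 2), endothelial markers (0 to 1 and 7, likewise) and muscle markers (1 to 5 in either pair, 0 without Low Female1, Low Male1 or Low Male2).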
